A study of Mus musculus with 6 samples.

Results

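The 8 genes described here carry sugars or small organic acids across the membranes of kidney tubule cells, and they were chosen by name: Slc5a1, Slc5a2, Slc5a8, Slc5a10 and Slc5a12 of the sodium-coupled SLC5 family, and Slc2a1, Slc2a2 and Slc2a5 of the facilitative SLC2 (GLUT) family. They are 8 of the 46095 genes in the count table, and all 8 passed the filter on low counts that left 14611 genes for testing. RNA was sequenced from primary renal tubular epithelial cells (PTECs) of 6 mice at 10 weeks of age. Groups of 3 libraries were compared: VHL-KO (replicates 1, 2 and 4), in which Cre deletes the VHL fl/fl alleles, and VHL-KO;SETD2-KO (replicates 2, 3 and 4), in which it deletes Setd2 fl/fl as well. In both groups Cre was driven by the Cdh16 (Ksp) promoter, which is active in renal tubular epithelium, so deletion was limited to Cre-positive cells. Both groups carried the VHL deletion and no group lacked it, so the comparison is between preparations with VHL deleted in Cre-positive cells that differ in the SETD2 label.

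Glucose filtered by the glomerulus is recovered in the proximal tubule. SGLT2, the product of Slc5a2, takes up most of it at the luminal membrane of the early segments, and SGLT1, the product of Slc5a1, takes up the remainder in the late segment. The glucose then leaves the cell through GLUT2 (Slc2a2) and GLUT1 (Slc2a1) on the basolateral side. SGLT5 (Slc5a10) carries mannose and fructose, and GLUT5 (Slc2a5) carries fructose. Slc5a8 and Slc5a12 encode SMCT1 and SMCT2, which carry lactate and other monocarboxylates rather than sugars, so the name of sugar transporter does not cover them by function. VHL targets the HIF alpha subunits for degradation, and Slc2a1 is a textbook HIF target.

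Promoter sequence is shown for 3 of these genes. Slc5a10 alone passed the unadjusted threshold with all 6 libraries in edgeR, the main fit. The call of Slc5a8 depended on 1 library, and Slc2a1 is the HIF target. Each sequence runs from 250 bases before the RefSeq start to 50 bases after it, on the strand of the gene in GRCm38.p6, and RefSeq windows were found for 6 of the 8 genes. Capitals mark letters found by a search of both strands for 3 motifs. For HNF4, a nuclear receptor of the proximal tubule, the search used CAAAGTCCA. The core of the element that HIF binds was searched as ACGTG. The box bound by the TATA-binding protein was searched as TATAAA. The regions are chr11:61720750-61721049 (minus strand) for Slc5a10, chr10:88885742-88886041 (plus strand) for Slc5a8 and chr4:119108495-119108794 (plus strand) for Slc2a1.
Slc5a10: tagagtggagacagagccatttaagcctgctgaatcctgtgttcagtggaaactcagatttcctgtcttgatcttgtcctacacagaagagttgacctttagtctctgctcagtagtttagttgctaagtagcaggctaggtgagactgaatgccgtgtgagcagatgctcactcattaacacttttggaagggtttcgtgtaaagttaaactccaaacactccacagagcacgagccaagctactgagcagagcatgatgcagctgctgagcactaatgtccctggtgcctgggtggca
Slc5a8: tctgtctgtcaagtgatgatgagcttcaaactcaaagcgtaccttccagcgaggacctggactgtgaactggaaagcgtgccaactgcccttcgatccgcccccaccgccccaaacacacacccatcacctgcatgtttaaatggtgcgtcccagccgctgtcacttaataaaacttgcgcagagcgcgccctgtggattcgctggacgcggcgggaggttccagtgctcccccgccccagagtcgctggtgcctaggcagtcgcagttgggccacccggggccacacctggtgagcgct
Slc2a1: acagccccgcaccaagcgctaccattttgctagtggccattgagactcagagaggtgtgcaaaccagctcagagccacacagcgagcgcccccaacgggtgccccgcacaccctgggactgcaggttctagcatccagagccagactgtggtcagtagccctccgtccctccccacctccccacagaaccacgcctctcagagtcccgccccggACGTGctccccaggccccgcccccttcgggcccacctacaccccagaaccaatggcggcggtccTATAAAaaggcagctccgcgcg
In Slc2a1 the HIF core began 36 bases before the start and the TATA letters at base 29 after it, and these motifs were held by 19.7% and 13.6% of all 32544 promoter windows. The Slc5a10 and Slc5a8 windows held none of the 3 motifs, and neither did that of a further RefSeq start of Slc5a10, not shown. Of the genes not shown, Slc5a1 held the HIF core as CACGTG, which reads as ACGTG on both strands with the matches overlapping. The HNF4 letters were found in 0.479% of all windows and in none of these genes. These matches are descriptions of sequence, not of binding.

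Libraries held 11168552 to 17883466 counts, and 3 counts were taken as the smallest detectable signal. In CPM (counts scaled by library size) they correspond to 0.168 to 0.269, with counting error only. These floors use total counts, whereas the CPM values below use library sizes after TMM normalization. From the rest, 2 libraries stood apart. That labelled VHL-KO replicate 4 was the highest or lowest of the 6 for 81.6% of the tested genes, and 11.3% of its counts were mitochondrial against 25.9% to 36.4% in the others. That labelled VHL-KO;SETD2-KO replicate 3 held 11704 Xist counts, against 4 or fewer in the others, and 1 count over 4 Y-linked genes, against 260 or more. This is the pattern of a female mouse, and the other libraries had that of male mice, so sex was not balanced between the labels. The part of sex in the values below was not tested. The targeted gene was not lower under the SETD2 label: Setd2 had 1179, 799 and 132 counts in libraries labelled VHL-KO and 1499, 1019 and 1429 in those labelled VHL-KO;SETD2-KO. As CPM these were 71.5, 73.9 and 12.3 against 79.6, 57.4 and 89.6, so the labels overlapped. The log2 fold change was 0.52 (SE 0.64, edgeR adjusted p = 0.787), and the lowest value was VHL-KO replicate 4. Counts per gene cannot separate the deleted exons from those that remain, and genotypes are therefore given below as labels.

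No member passed an adjusted p under 0.05 between the labels (edgeR's quasi-likelihood test, Benjamini-Hochberg over all tested genes), which 0.00684% of tested genes did. At an unadjusted p under 0.05 with a fold change of at least 1.5, Slc5a10 was the 1 member called, in the lower direction. The share of tested genes called lower by this rule was 4.68%, and the share called higher was 2.65%, so a single call among 8 genes is not a result about the members as a group. In no member were the ranges of the labels separate, whereas 20.6% of tested genes had separate ranges. Means were lower in libraries labelled VHL-KO;SETD2-KO for 7 members and higher for Slc5a12. The members' median log2 fold change was -0.68, beside 0.0095 over all tested genes.

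Which members were called depended on the fit. Without VHL-KO replicate 4, edgeR called Slc5a8 and Slc2a2 lower at the unadjusted threshold, as it did 7.14% of tested genes. The ranges of the labels were then separate for 3 members: Slc5a8 and Slc2a2 were lower, as were 21.5% of tested genes, and Slc2a1 was higher, as were 20.4%. DESeq2 on all 6 libraries called Slc5a2 and Slc5a10 lower at the unadjusted threshold, beside 7.75% of tested genes. Limma-voom with sample quality weights, added after the data were seen, called Slc5a1, Slc5a8, Slc5a10 and Slc2a2 lower at an adjusted p under 0.05, beside 9.81% of tested genes.

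**Figure D1:**
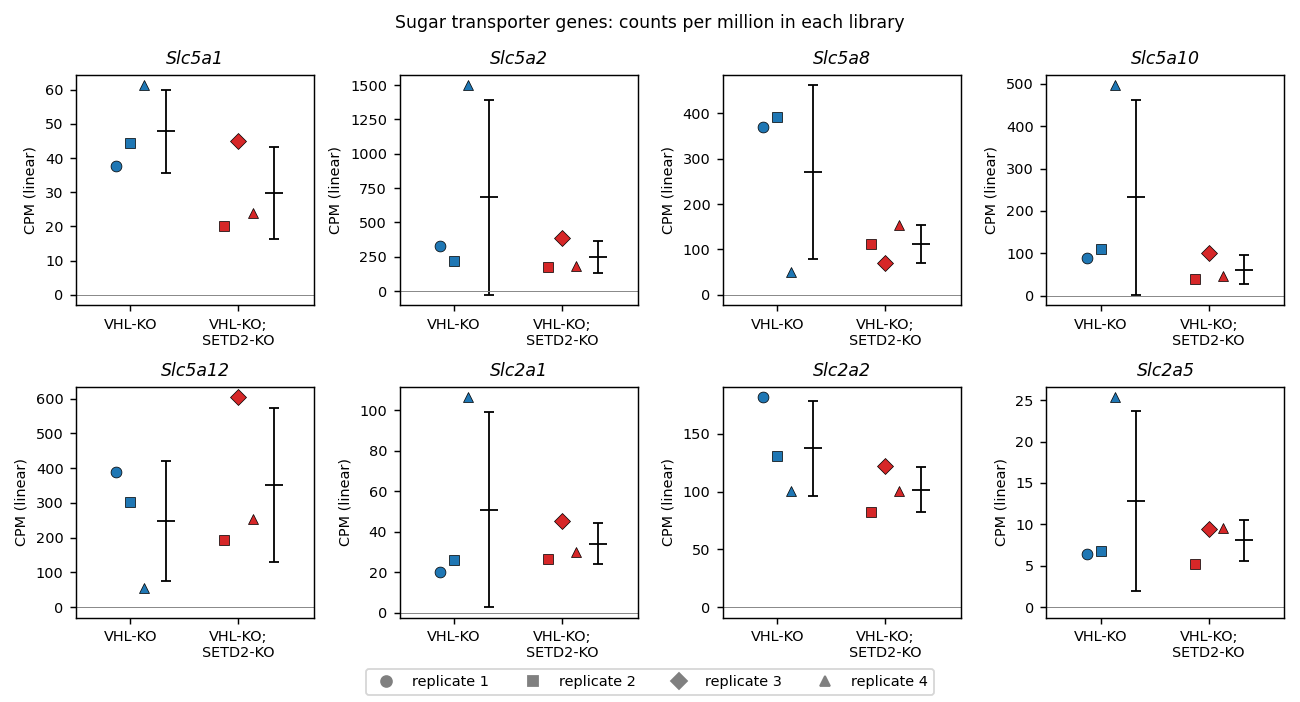
CPM on linear axes for each of the 8 transporter genes in each library, with 1 marker shape per replicate number and black bars for the mean ± SD (n = 3 libraries per label). VHL-KO replicate 4 lies above every other library for Slc5a1, Slc5a2, Slc5a10, Slc2a1 and Slc2a5 and below every other library for Slc5a8 and Slc5a12.

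Slc5a2 (chr7:128265657-128272430, plus strand, 14 exons) encodes SGLT2. Its level was 329, 218 and 1500.4 CPM in VHL-KO replicates 1, 2 and 4 and 177, 385 and 185 CPM in VHL-KO;SETD2-KO replicates 2, 3 and 4. The 4 lowest values lay between 177 and 329 CPM, with VHL-KO replicate 4 far above and VHL-KO;SETD2-KO replicate 3 somewhat above, and the labels overlapped. The mean was 683 ± 710 CPM (SD, n = 3) in VHL-KO and 249.0 ± 118 CPM (SD, n = 3) in VHL-KO;SETD2-KO, a log2 fold change of -1.45 (SE 0.78, edgeR adjusted p = 0.625). Leaving out VHL-KO replicate 4 brought the log2 fold change to -0.14. Exons of Slc5a2 overlap the opposite-strand gene BC017158, and as the use of strand in counting is not given in the sources used here, reads of the pair cannot be told apart.

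Slc5a1 (chr5:33104219-33162870, plus strand, 15 exons) encodes SGLT1, the high-affinity carrier. Its level was 37.6, 44.5 and 61.4 CPM in VHL-KO and 20.1, 45.1 and 24.0 CPM in VHL-KO;SETD2-KO. Replicate 3 of the second label fell among the VHL-KO values, while its other libraries lay below all of them. The log2 fold change was -0.69 (SE 0.45, edgeR adjusted p = 0.643), and -0.47 without VHL-KO replicate 4. The ratio of Slc5a2 to Slc5a1 within a library does not depend on library size. As CPM per kilobase, Slc5a2 was 15.8, 8.84 and 44.1 times Slc5a1 in VHL-KO and 15.9, 15.4 and 13.9 times in VHL-KO;SETD2-KO. The SGLT2 transcript was therefore the more abundant in all 6 libraries, and the ratios of the second label lay within the range of the first. The log2 ratio differed by -0.29 between the labels (exact permutation test, two-sided, p = 0.8, where 0.1 is the smallest p that 3 against 3 allows), and without VHL-KO replicate 4 the difference turned to 0.35.

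Slc5a10 (chr11:61672781-61720826, minus strand, 16 exons) had 88.5, 110 and 497 CPM in VHL-KO and 38.5, 102 and 45.8 CPM in VHL-KO;SETD2-KO. As for Slc5a2, VHL-KO replicate 4 was far above the rest, at 4.99 times the mean of the other VHL-KO libraries, and VHL-KO;SETD2-KO replicate 3 lay within the VHL-KO range. The log2 fold change was -1.90 (SE 0.76, edgeR unadjusted p = 0.0369, adjusted p = 0.625), from 232 ± 230 to 61.9 ± 34.5 CPM (SD, n = 3 each). Without VHL-KO replicate 4 it was -0.69, with an unadjusted p of 0.157 in edgeR, and the call was lost. Its unadjusted p was 0.118 without VHL-KO;SETD2-KO replicate 2 and 0.110 without replicate 4. Exons of Slc5a10 overlap Fam83g and Grap on the opposite strand, with the same limit on strand as above.

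The lactate carriers stood the other way round in VHL-KO replicate 4. Slc5a8 (chr10:88885992-88929515, plus strand, 15 exons) had 370, 392 and 49.5 CPM in VHL-KO and 113, 71.0 and 155 CPM in VHL-KO;SETD2-KO. The first and second VHL-KO replicates were above every library of the other label, and VHL-KO replicate 4 was below every one. Between the labels the log2 fold change was -1.26 (SE 0.74, edgeR adjusted p = 0.626). Without VHL-KO replicate 4 it was -1.76 (edgeR unadjusted p = 0.00157, adjusted p = 0.0869), the labels were then separate, and DESeq2's Wald test on the same 5 libraries gave an adjusted p of 4.14e-05. In that DESeq2 fit 5.19% of tested genes were called lower at an adjusted p under 0.05, and Slc5a8 was the only member called. The DESeq2 fit without this library was added after the data were seen.

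Slc5a12 (chr2:110597298-110647779, plus strand, 15 exons) had 389, 301 and 53.7 CPM in VHL-KO and 193, 604 and 254 CPM in VHL-KO;SETD2-KO. Its lowest value was again VHL-KO replicate 4 and its highest VHL-KO;SETD2-KO replicate 3, and between them the other VHL-KO;SETD2-KO libraries lay below the other VHL-KO libraries. The log2 fold change of 0.50 (SE 0.75, edgeR adjusted p = 0.821) was 0.02 without the first of these libraries and -0.15 without the second. Of the 8 genes, Slc5a12 alone had a higher mean in VHL-KO;SETD2-KO, 350.4 ± 222 against 248 ± 174 CPM (SD, n = 3 each).

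Slc2a2 (chr3:28697903-28731359, plus strand, 11 exons) encodes GLUT2, the main basolateral exit route of the early proximal tubule. It had 182, 131 and 100.4 CPM in VHL-KO and 82.6, 122 and 101 CPM in VHL-KO;SETD2-KO. VHL-KO replicate 4 was neither the highest nor the lowest library, which held for this member only. Over all libraries the log2 fold change was -0.44 (SE 0.41, edgeR adjusted p = 0.735). Without VHL-KO replicate 4 it was -0.62 (edgeR unadjusted p = 0.0348, adjusted p = 0.216) and the labels were separate.

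Slc2a1 (chr4:119108711-119137983, plus strand, 10 exons) encodes GLUT1. It had 20.2, 26.2 and 106 CPM in VHL-KO and 26.7, 45.6 and 29.8 CPM in VHL-KO;SETD2-KO. Apart from VHL-KO replicate 4, every library of the second label was above every VHL-KO library. The direction of the difference therefore turned with that library, from a log2 fold change of -0.58 (SE 0.66, edgeR adjusted p = 0.773) with it to 0.55 (edgeR unadjusted p = 0.0905) without it. Exons of Slc2a1 overlap the opposite-strand gene Gm12868. As CPM per kilobase, Slc2a2 was 5.25, 2.92 and 0.553 times Slc2a1 in VHL-KO and 1.81, 1.57 and 1.98 times in VHL-KO;SETD2-KO. GLUT1 transcript exceeded GLUT2 transcript in VHL-KO replicate 4 alone. The log2 ratio differed by -0.20 between the labels (exact permutation test, two-sided, p = 0.9), and by -1.14 without VHL-KO replicate 4.

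Slc2a5 (chr4:150119283-150144169, plus strand, 14 exons) was the lowest of the 8 genes, with 6.36, 6.75 and 25.3 CPM in VHL-KO and 5.15, 9.46 and 9.53 CPM in VHL-KO;SETD2-KO. Its counts were 73 to 271 per library, well above the 3 counts taken as the floor. VHL-KO replicate 4 was 3.86 times the mean of the other VHL-KO libraries, and the remaining values overlapped. Its log2 fold change was -0.67 (SE 0.63, edgeR adjusted p = 0.730), and 0.29 without that library.

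**Figure D2:**
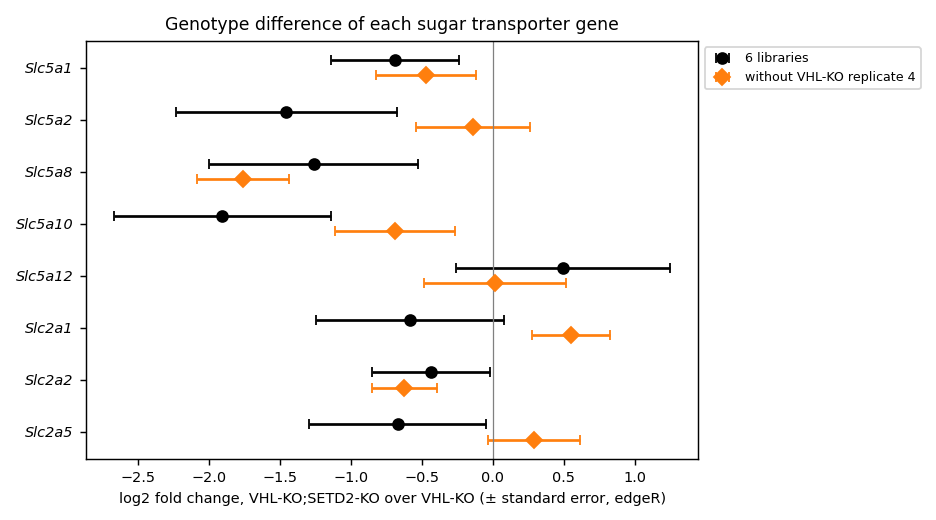
Log2 fold change of each transporter gene, VHL-KO;SETD2-KO over VHL-KO, with its standard error from edgeR, for all 6 libraries (black) and without VHL-KO replicate 4 (orange). Slc2a1 and Slc2a5 cross 0 when that library is left out, Slc5a2 moves from -1.45 to -0.14, and Slc5a8 moves from -1.26 to -1.76.

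Set against the mean of its own label's other libraries, VHL-KO replicate 4 divided the members. Slc5a2 was 5.48 times as high in it, Slc5a10 4.99 times, Slc2a1 4.58 times, Slc2a5 3.86 times and Slc5a1 1.49 times. Slc5a8 was 7.71-fold lower, Slc5a12 6.43-fold lower and Slc2a2 1.56-fold lower. The same library held 27044 CPM over 8 proximal tubule markers, against 6240 to 15244 CPM in the others, 4753 CPM over 4 markers of the thick limb and distal tubule against 1183 to 4053, and 406 CPM over 4 collecting duct markers against 10.2 to 204. Markers of these lists did not move together there: Slc34a1 and Ggt1 were the highest of the 6 libraries, while Lrp2 (940 against 1167 to 3384 CPM), Slc12a1, Calb1 and Atp6v1g3 were the lowest. The part of the markers in the transporter values was not tested.

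In VHL-KO;SETD2-KO replicate 3, set against the mean of the other libraries of its label, Slc5a12 was 2.70 times as high, Slc5a10 2.41 times, Slc5a2 2.13 times, Slc5a1 2.04 times and Slc2a1 1.61 times. Slc5a8 was 1.89-fold lower there. Slc5a8 and Slc5a12, which carry the same class of substrate, thus stood on opposite sides in this library and on the same side in VHL-KO replicate 4.

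**Figure D3:**
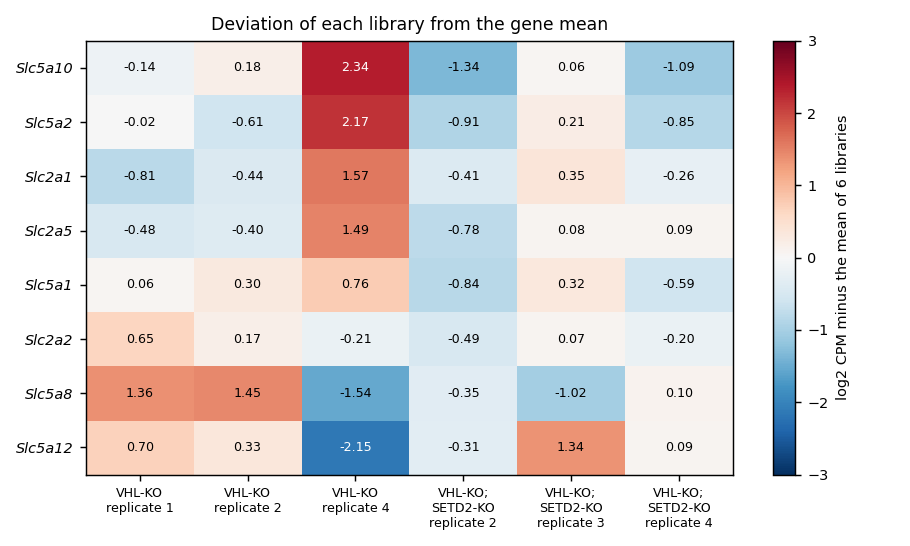
Log2 CPM of each transporter gene (rows) in each library (columns) minus the gene's mean over the 6 libraries, with rows ordered by VHL-KO replicate 4. That column runs from 2.34 for Slc5a10 to -2.15 for Slc5a12, while the other columns stay between -1.34 and 1.45.

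Levels can be compared between genes only per length, here as CPM per kilobase of the principal transcript. In VHL-KO the order of the means was Slc5a2 (299.7), Slc5a10 (103), Slc5a12 (70.5), Slc5a8 (50.8), Slc2a2 (24.7), Slc2a1 (15.6), Slc5a1 (11.7) and Slc2a5 (4.06). Neighbours in that order overlapped over the 3 libraries, apart from Slc5a1 and Slc2a5. In VHL-KO;SETD2-KO the order was Slc5a2 (109), Slc5a12 (99.6), Slc5a10 (27.4), Slc5a8 (21.2), Slc2a2 (18.3), Slc2a1 (10.4), Slc5a1 (7.24) and Slc2a5 (2.55). There Slc5a12 was separate from Slc5a10, Slc2a2 from Slc2a1 and Slc5a1 from Slc2a5. The SGLT2 transcript led in both labels. The places of Slc5a12 and Slc5a10 in VHL-KO rested on replicate 4 (15.3 against 219.8), since Slc5a12 was above Slc5a10 in replicates 1 and 2 (110.6 and 85.7 against 39.1 and 48.9), the order of the other label.

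**Figure D4:**
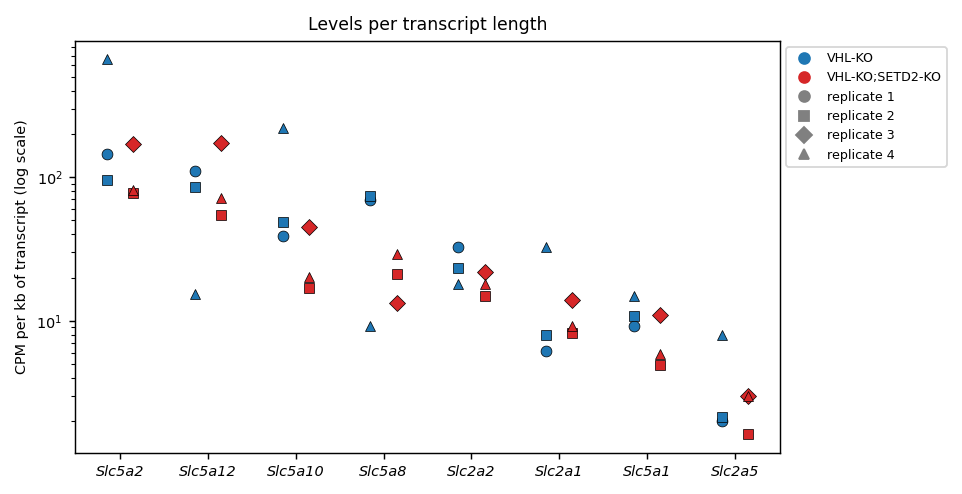
CPM per kilobase of the principal transcript on a log axis for the 8 transporter genes, ordered by their mean level in VHL-KO;SETD2-KO. Colour gives the label and shape the replicate number. Slc5a2 has the highest mean in both labels and Slc2a5 the lowest, and most neighbouring genes overlap.

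Markers of the proximal tubule, the segment in which these transporters act, were lower in libraries labelled VHL-KO;SETD2-KO. The sum over 8 markers was 14944 to 27044 CPM in VHL-KO and 6240 to 8474 CPM in VHL-KO;SETD2-KO, without overlap. All 8 had a lower mean, and Slc34a1, Aqp1, Ggt1 and Slc22a6 passed an unadjusted p under 0.05 at a fold change of at least 1.5 (edgeR, adjusted p = 0.625 each). Summed markers of the early segments (6 genes) were 6584 to 15550 CPM against 3438 to 4950 CPM. Among these, only Slc34a1, which is also in the 8-gene sum, was separate (4759 to 14206 against 2188 to 2967 CPM). Gatm had a higher mean in VHL-KO;SETD2-KO. Those of the late segment (4 genes) were 416 to 1288 CPM against 73.2 to 329 CPM. The lowest of these sums was that of VHL-KO;SETD2-KO replicate 3, where Slc7a13 had 2.42 CPM against 290 and 301 CPM in replicates 2 and 4. Slc7a13 itself overlapped between the labels, as did Slc22a19. The other late-segment markers, Cyp7b1 and Slc22a7, were called lower without overlap (edgeR unadjusted p = 0.027 and 0.0112, adjusted p = 0.625 each). Summed thick limb and distal tubule markers (4 genes) were 1183 to 4753 CPM in VHL-KO and 1464 to 4053 CPM in VHL-KO;SETD2-KO. Collecting duct markers (4 genes) were 10.2 to 406 and 45.2 to 204 CPM, with overlap in each list. Means were higher in VHL-KO;SETD2-KO for 3 genes of the first list and 2 of the second. Of these, Calb1 and Atp6v1g3 were called higher without overlap (edgeR unadjusted p = 0.0226 and 0.0117, adjusted p = 0.625 each). Podocyte markers (4 genes) were 1403 to 2069 CPM in VHL-KO and 1913 to 4723 CPM in VHL-KO;SETD2-KO. Endothelial markers (4 genes) were 777 to 1497 CPM and 1090 to 3678 CPM, and both pairs overlapped. Nphs1, which encodes the podocyte slit-diaphragm protein nephrin, passed the same unadjusted threshold in the higher direction. Summed fibroblast, macrophage and tubular injury markers overlapped between the labels, and of these Havcr1, the injury marker KIM1, was the 1 gene called, in the lower direction. Its counts were 25, 21 and 13 in VHL-KO and 3, 7 and 7 in VHL-KO;SETD2-KO, near the floor of 3 counts. None of these markers was at 0 in all libraries. In bulk RNA, fewer cells of a type and less RNA per cell cannot be told apart, and the part of the markers in the transporter differences was not tested.

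Expressed per 1000 CPM of the proximal marker sum, a scale chosen after the data were seen, the transporters took another order. Slc5a1 was 2.47, 2.98 and 2.27 in VHL-KO and 3.23, 5.32 and 3.20 in VHL-KO;SETD2-KO, so that the labels separated in the direction opposite to the CPM means. Slc5a12, Slc2a1 and Slc2a2 were also higher without overlap on this scale, and Slc5a2, Slc5a8, Slc5a10 and Slc2a5 overlapped. Of all tested genes, 68.4% were higher without overlap on this scale, so the 4 higher members are not a result about transporters. In VHL-KO replicate 4 Slc5a8 was 1.83, below every library of the other label. Only when that library was left out was Slc5a8 lower without overlap (24.3 and 26.3 against 18.1, 8.37 and 20.7), as were 0.794% of tested genes. The separation therefore rests on leaving out the 1 contrary value, a choice made after the data were seen. Slc5a10 then overlapped, and the other 6 members were higher, as were 82.6% of tested genes.

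**Figure D5:**
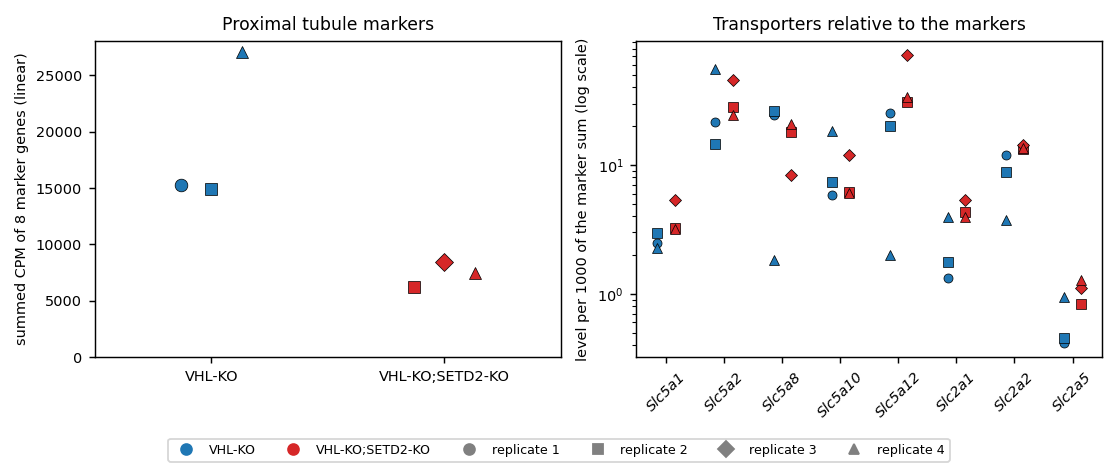
Left, summed CPM of 8 proximal tubule markers in each library on a linear axis; right, each transporter gene per 1000 CPM of that sum on a log axis. The marker sum is at most 8474 CPM in the 3 VHL-KO;SETD2-KO libraries and at least 14944 CPM in the 3 VHL-KO libraries.

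The remaining SLC5 genes carry sugars, inositol, vitamins, iodide or choline, and 4 of 8 were expressed highly enough to be tested. Slc5a11, an inositol carrier, was the 1 gene called at the unadjusted threshold, in the lower direction (log2 fold change -1.91, SE 0.66, edgeR unadjusted p = 0.0201, adjusted p = 0.625). It had 40.9, 37.7 and 176 CPM in VHL-KO and 19.9, 28.2 and 19.7 CPM in VHL-KO;SETD2-KO, without overlap. Like Slc5a2 and Slc5a10 it was highest in VHL-KO replicate 4, and without that library its log2 fold change was -0.80 (edgeR unadjusted p = 0.00683). Slc5a9, a mannose and fructose carrier, was also lower without overlap, at 22.3 to 30.7 against 12.5 to 20.6 CPM (log2 fold change -0.64, edgeR adjusted p = 0.627). Slc5a3, the inositol carrier induced by hypertonicity, had a log2 fold change of 1.17 (edgeR adjusted p = 0.625) with overlapping labels, and Slc5a6, the multivitamin carrier, one of -0.97 (edgeR adjusted p = 0.625).

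Among the other SLC2 genes 7 of 9 were tested and none passed the unadjusted threshold in either direction. Their median log2 fold change was 0.25, and the urate carrier Slc2a9 stood at 15.4 ± 5.89 CPM in VHL-KO and 14.7 ± 0.856 CPM in VHL-KO;SETD2-KO (SD, n = 3 each). Slc2a12 had 8.96 ± 1.60 and 10.7 ± 0.878 CPM and Slc2a8 18.4 ± 19.0 and 9.94 ± 3.70 CPM. Slc2a3, which encodes the glucose carrier GLUT3, had a log2 fold change of 0.69 (edgeR adjusted p = 0.653). Of 12 other sugar carriers 10 were tested and none was called. Slc37a4, the glucose 6-phosphate carrier of the endoplasmic reticulum, had 204, 185 and 824 CPM in VHL-KO and 98.2, 226 and 115 CPM in VHL-KO;SETD2-KO (log2 fold change -1.47, edgeR adjusted p = 0.625). Like Slc5a2 it was highest in VHL-KO replicate 4. Mfsd4b1 and Mfsd4b5, relatives of the sodium-glucose carrier NAGLT1, had log2 fold changes of -0.95 and -0.69 with overlapping labels.

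Proteins that hold these carriers at the membrane, energise them or drive their transcription gave 4 calls among 11 tested genes, each in the lower direction, where 4.68% of all tested genes were called lower. Hnf4a, a regulator of proximal tubule differentiation, was at 664 to 986 against 303 to 448 CPM, without overlap (log2 fold change -1.04, SE 0.43, edgeR unadjusted p = 0.0402). Slc9a3r1, the scaffold NHERF1, was at 192 to 855 against 117 to 132 CPM, also without overlap (log2 fold change -1.74, SE 0.66, edgeR unadjusted p = 0.0288). Adjusted p was 0.625 for each. Without VHL-KO replicate 4 the log2 fold changes of Hnf4a and Slc9a3r1 were -0.86 and -0.65. Without VHL-KO;SETD2-KO replicate 2, 3 or 4 the number of calls in this list fell to 0, 0 and 1.

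Pdzk1, another scaffold of the brush border, was lower without overlap (864 to 1600 against 494 to 698 CPM), with an unadjusted p of 0.0644 in edgeR. Pdzk1ip1 encodes MAP17, the accessory subunit of SGLT2, and had 223, 169 and 999.9 CPM in VHL-KO and 138, 327 and 143 CPM in VHL-KO;SETD2-KO. It was among the genes nearest to Slc5a2 in profile. The sodium pump subunits Atp1b1 and Fxyd2 overlapped between the labels, with log2 fold changes of 0.24 and -1.27. Txnip, an inhibitor of glucose uptake through GLUT1, was higher without overlap, at 684 to 730 against 410 to 618 CPM (log2 fold change 0.52, edgeR adjusted p = 0.685). All of these marks accompany the lower proximal marker sum given above, and its part in them was not tested.

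For the facilitative monocarboxylate carriers, which share lactate with Slc5a8 and Slc5a12, 1 of 6 tested genes was called. Emb, the ancillary subunit embigin, had 8.85, 16.5 and 5.05 CPM in VHL-KO and 23.4, 36.0 and 23.6 CPM in VHL-KO;SETD2-KO, higher without overlap (log2 fold change 1.45, SE 0.51, edgeR unadjusted p = 0.0213, adjusted p = 0.625). Slc16a7 (MCT2) was likewise separate, at 19.3 to 83.0 against 92.6 to 189 CPM (log2 fold change 1.21, edgeR adjusted p = 0.625). The other ancillary subunit, Bsg (basigin), had 284, 265 and 1768 CPM against 235, 406 and 236 CPM. Slc16a3 (MCT4) had 4.24, 6.75 and 77.2 CPM against 4.78, 14.5 and 6.96 CPM. Like Slc5a2, both were highest in VHL-KO replicate 4. Slc16a1 (MCT1), at 8.89 to 43.0 against 20.4 to 42.4 CPM, and Slc16a4 overlapped.

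The genes whose profile came nearest to each member were found by the root mean square difference of mean-centred log2 CPM over the 6 libraries, among 9514 genes with a mean log2 CPM of at least 3. For Slc5a2 they were Zfp771 (0.114) and Pdzk1ip1 (0.121), and for Slc5a10 Naprt (0.130) and Oplah (0.148). For Slc5a1 they were Adtrp (0.101) and Glb1l2 (0.105), for Slc5a8 Gm19950 (0.135) and Tmigd1 (0.206), and for Slc5a12 Ppargc1a (0.141) and Fam134b (0.152). For the GLUT genes they were Bcat2 (0.0710) and Me3 (0.0822) beside Slc2a1, Fzd1 (0.0810) and Prosc (0.0969) beside Slc2a2, and Dhx34 (0.140) and Psph (0.152) beside Slc2a5. Among the members themselves Slc2a1 and Slc2a5 were nearest (0.273), then Slc5a2 and Slc5a10 (0.394), and Slc5a10 and Slc5a12 were farthest apart (2.04). VHL-KO replicate 4 held the largest deviation from the mean for 6 of the 8 members, and the likenesses are given as descriptions.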

How the data were processed

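The authors isolated RNA from PTECs, prepared directional libraries and deposited raw counts per gene symbol, without normalization. The submitters' processing notes name HISAT2 2.0.4 and GRCm38, and the counting program is not given in the sources used here. Counts were analysed with edgeR 4.0.16 in R 4.3.3 (TMM, filterByExpr, quasi-likelihood test, label as the only factor). Limma 3.58.1 and DESeq2 1.42.0 served as alternatives, and exact tests used scipy 1.17.1. The fits were tested on simulated data. CPM used TMM library sizes, and log2 CPM a prior count of 2. Log2 ratios used counts plus 0.5. Gene positions and transcript lengths came from GENCODE M21, and promoters from RefSeq GRCm38.p6. Alternatives were DESeq2's size factors, library sizes without mitochondrial genes, other filters, limma-voom, a replicate block and leaving out each library. The chi-square of each of the 6 library pairs within a label exceeded sampling noise, so no library was treated as a repeat of another.

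The members and gene lists were chosen with earlier results of these data known. All members, list genes past the unadjusted threshold, up to 4 more per list by level, cell type markers and the 2 nearest profiles per member were eligible to be named. Xist, Txnip and Slc16a3 were named after their values were seen. Some genes of the lists are not reported here by name. The labels give 3 numbered replicates per genotype, and the authors' legend for the sequencing heatmap gives 3 mice per group.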

Additional observations from a re-analysis of the deposited data

How the results depend on the processing

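With 3 libraries per label and 1 library apart from the rest, the counts of calls moved widely. No member was called higher at the unadjusted or adjusted threshold under any alternative, and the members' median log2 fold change stayed between -0.95 and -0.30. Leaving out 1 library at a time gave 0 to 2 members lower at the unadjusted threshold and 0 at the adjusted one. Over all tested genes it gave 179 to 1243 higher and 206 to 1078 lower at the unadjusted threshold, and 0 to 1 lower at the adjusted one. In the lists it gave 0 to 1 call in each direction, apart from 0 to 2 other sugar carriers lower and 0 to 5 partners and regulators lower. The log2 fold change ran from -0.15 to 0.98 for Slc5a12 (lowest without VHL-KO;SETD2-KO replicate 3), from -0.94 to 0.55 for Slc2a1 and from -0.97 to 0.29 for Slc2a5 (both highest without VHL-KO replicate 4). The difference in log2 ratio ran from -0.81 to 0.35 for Slc5a2 to Slc5a1 and from -1.14 to 0.48 for Slc2a2 to Slc2a1, the last turning to 0.48 without VHL-KO replicate 1 and 0.06 without replicate 2.

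DESeq2's Wald test on 6 libraries called 2 members lower at the unadjusted threshold (Slc5a2 and Slc5a10), as it did 1133 of all genes, 1 other SLC5 gene, 1 other SLC2 gene, 1 other sugar carrier, 6 partners and 1 monocarboxylate carrier (1 more was higher), and at the adjusted threshold it called 1 gene higher and 50 lower, with no adjusted p for Slc5a1, Slc2a1 and Slc2a5. Limma-voom called 0 members lower. With no filter on low counts 634 genes were higher at the unadjusted threshold and 2 lower at the adjusted one, with 1 other SLC5 gene higher and 1 other sugar carrier lower. With at least 10 counts in every library 0 genes passed the adjusted threshold.

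Limma-voom with sample quality weights, added after the data were seen, called 4 members lower at both thresholds (Slc5a1, Slc5a8, Slc5a10 and Slc2a2), where it called 9.81% of all genes lower. It called 1544 genes higher and 1434 lower at the adjusted threshold and 2124 and 1527 at the unadjusted one. In the lists it called 2 other SLC5 genes lower, 2 other SLC2 genes higher, 2 other sugar carriers higher and 3 lower, 2 partners higher and 5 lower, and 1 monocarboxylate carrier higher and 2 lower. It turned Slc5a12 to -0.46, Slc2a1 to 0.35 and Slc2a5 to 0.18.

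DESeq2 without VHL-KO replicate 4, also added, called 1 member lower at the adjusted threshold (Slc5a8) and 2 at the unadjusted one, beside 546 genes higher and 778 lower, and 1425 and 1093. In the lists it called 1 other SLC5 gene lower, 1 other sugar carrier in each direction, 1 partner higher and 5 lower, and 2 monocarboxylate carriers higher and 1 lower. It turned Slc2a1 to 0.55 and Slc2a5 to 0.29. The cause of these changes was not tested.

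Replicate numbers 2 and 4 occur under both labels. Deviations from the label means correlated at 0.16 for number 2 and -0.32 for number 4. Each label mean includes a library that stood apart, so these values cannot decide whether a shared number marks a shared preparation. With the replicate block 0 members were called, and 93 genes passed the unadjusted threshold upwards and 54 downwards, with 0 other SLC5 genes, 0 partners lower and 0 monocarboxylate carriers higher. Slc5a8 stood at -0.08 and Slc5a10 at -2.48 in that fit.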

Other observations

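Some ratios between members were chosen after the data were seen and are given as values only. As CPM per kilobase, Slc5a12 was 1.59, 1.16 and 1.64 times Slc5a8 in VHL-KO replicates 1, 2 and 4, and 2.59, 12.9 and 2.48 times in VHL-KO;SETD2-KO replicates 2, 3 and 4. The labels did not overlap, VHL-KO replicate 4 lay among its own label, and the highest ratio was that of VHL-KO;SETD2-KO replicate 3. On the same scale, Slc5a2 was 3.69, 1.96 and 3.00 times Slc5a10 in VHL-KO and 4.57, 3.77 and 4.00 times in VHL-KO;SETD2-KO, again without overlap. The nearest values of the labels for this last ratio were 3.69 and 3.77. These ratios do not depend on library size. The share of all gene pairs that separate in this way was not computed, so neither separation is a result about these genes.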
